A study of Homo sapiens with 4 samples.

Results

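Chaperones are proteins that bind unfolded or partly folded chains and help them reach or keep their working shape. Described here are the transcripts of cytosolic and mitochondrial chaperones and of the cochaperones that steer them, in SK-BR-3 cells, a line from a human breast cancer in which the HER2 gene is amplified and p53 carries a missense mutation. The list holds 41 gene names, and each gene was represented by its brightest probe set that carried exactly 1 gene symbol. Such a probe set existed for 37 of the 41 genes, out of 19777 genes on the array. HSPA8, TCP1, AHSA1 and HSF2 had none and were not analysed here. All 37 genes had a mean signal above 15.3, the median of the probe sets, and 34 were among the 7744 bright genes, those at or above the 75th percentile of probe sets, a signal of 110.3.

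The cells carried p53 shRNA with Pontin siRNA (called both knockdowns below), control shRNA with Pontin siRNA, p53 shRNA alone, or control shRNA alone, with 1 array per group. All 4 cultures were selected with puromycin after shRNA transfection, and RNA was taken 24 h after the siRNA step, whose control arm the sample titles call sicon. The labels name the control vector both as control shRNA and as an empty vector, and do not say whether the selected cells were a pool or a clone. Each knockdown was seen in 2 matched pairs that share no array. Ratios are log2 and are given first for the pair of cells without the other knockdown and then for the pair with it, and with no replicate inside a group no p-value is given for a gene. Each array averages a whole culture, in which fewer cells holding a transcript and less of it per cell cannot be told apart. A gene is called where both pairs had the same direction and at least 1.5-fold, which is 0.58 in log2.

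HSP90 and HSP70 are ATP-driven chaperones. DNAJ proteins deliver clients to HSP70, STIP1 passes clients from HSP70 to HSP90, and CDC37, PTGES3, FKBP4, FKBP5 and PPID act on HSP90 complexes. Mutant p53 proteins are known HSP90 clients, and Pontin, encoded by RUVBL1, works with HSP90 through the R2TP complex, which assembles other large complexes. CCT is a ring-shaped chaperonin for actin and tubulin, HSPD1 and HSPE1 form the mitochondrial chaperonin, and HSF1 is the transcription factor of the heat shock response.

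HSF1 binds heat shock elements, which are inverted repeats of the triplet GAA. The stretches below are shown because they place this element beside the start of 5 of the genes described. The motif searched was GAA, any 2 bases, TTC, any 2 bases and GAA again, or TTC, any 2 bases, GAA, any 2 bases and TTC, which is the same motif on the other strand. It was searched in windows of 250 bases before to 50 bases after each listed start in RefSeq, GRCh38.p14. Of the 37 genes, 32 had a window and 5 of these held the motif, and 0.608% of all 27305 genes with a window held it. Of 50 other chaperone network genes with a window, 3 held it, namely CHORDC1, HSPA6 and SERPINH1. Capitals mark every base inside a match, and overlapping matches are joined. Each stretch is written 5′ to 3′ on the strand of its gene. HSP90AA1 is at chr14:102087100-102087152 on the minus strand, HSP90AB1 at chr6:44247758-44247863 on the plus strand, HSPD1 at chr2:197500048-197500090 on the minus strand, DNAJA1 at chr9:33025256-33025308 on the plus strand, DNAJB6 at chr7:157336853-157336905 on the plus strand and CHORDC1 at chr11:90223067-90223129 on the minus strand.
HSP90AA1: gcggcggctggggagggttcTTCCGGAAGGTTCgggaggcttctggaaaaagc
HSP90AB1: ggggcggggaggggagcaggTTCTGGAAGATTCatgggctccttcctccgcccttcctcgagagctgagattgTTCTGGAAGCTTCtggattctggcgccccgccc
HSPD1: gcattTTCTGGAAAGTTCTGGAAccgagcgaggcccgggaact
DNAJA1: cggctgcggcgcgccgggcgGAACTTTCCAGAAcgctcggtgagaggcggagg
DNAJB6: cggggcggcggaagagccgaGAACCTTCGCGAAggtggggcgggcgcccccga
CHORDC1: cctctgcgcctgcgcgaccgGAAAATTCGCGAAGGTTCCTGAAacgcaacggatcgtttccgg

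The arrays had the same trimmed mean signal, but the array with both knockdowns stood apart in its median signal and its hybridization controls. The median over all probe sets was 19.6 with both knockdowns, 16.5 with Pontin siRNA, 16 with p53 shRNA and 15.9 with control shRNA. Over the 12066 genes kept (mean signal at or above that median), the correlation between arrays in log2 signal was 0.981 to 0.988. The 18 hybridization control probe sets averaged 1.42 times the control array on the array with both knockdowns, 1.14 times with Pontin siRNA and 1.04 times with p53 shRNA. RUVBL1, the siRNA target, had a signal of 127.4 with Pontin siRNA against 477.7 with control shRNA, and 65.8 with both knockdowns against 398.2 with p53 shRNA. The 7 luminal and HER2 markers examined, among them KRT8, KRT18, KRT19, ERBB2 and EPCAM, had signals of 334.8 to 11279. Among markers of leukocytes, fibroblasts, endothelium and basal epithelium, PTPRC, COL3A1, PDGFRB and VWF stayed at or below 10.9, while COL1A1 lay between 152.9 and 175.9 and CDH5 between 67.9 and 105.8. The summed signal of the 10 such markers was 401.7 with both knockdowns, 297.8 with Pontin siRNA, 344.2 with p53 shRNA and 328.3 with control shRNA. Its part in the results below was not tested.

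With Pontin siRNA, none of the 37 chaperone genes was called higher or lower, by the rule that called 2.4% of the genes kept (1.16% higher and 1.24% lower) and 1.28% of the bright genes (0.181% higher and 1.1% lower). The highest mean log2 ratios belonged to HSPB1, CDC37, BAG1, STIP1, HSPA4 and TRAP1, and the lowest to PPID, DNAJB4, BAG3, DNAJB6, HSF1 and FKBP5. The median of the 37 mean ratios was 0.03, against 0.01 over all genes kept. Above 0 in both pairs were 16 genes (43.2%, against 33.9% of genes kept), and below 0 in both were 9 (24.3%, against 32.0%). These counts moved with the processing: they were 3 above and 25 below after median centring, where 11.1% and 51.9% of genes kept were, and 26 above and 4 below with the mean over probe sets, where 35.6% and 25.2% were. At the smaller size of 1.2-fold in both pairs, 3 genes were higher (HSPB1, CDC37 and BAG1) and 0 lower, where 6.97% of genes kept were higher and 7.06% lower, and 3.72% and 6.62% of bright genes. At 0.32 in log2 in both pairs, HSPB1 and CDC37 passed, where 9.77% of genes kept and 6.75% of bright genes did in either direction. By role, the genes above 0 in both Pontin pairs were 5 of 8 in the HSP90 group, 4 of 7 in the HSP70 group, 1 of 8 DNAJ genes, 2 of 6 CCT genes, 3 of 4 mitochondrial genes and 1 of 3 small heat shock protein genes.

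**Figure D1:**
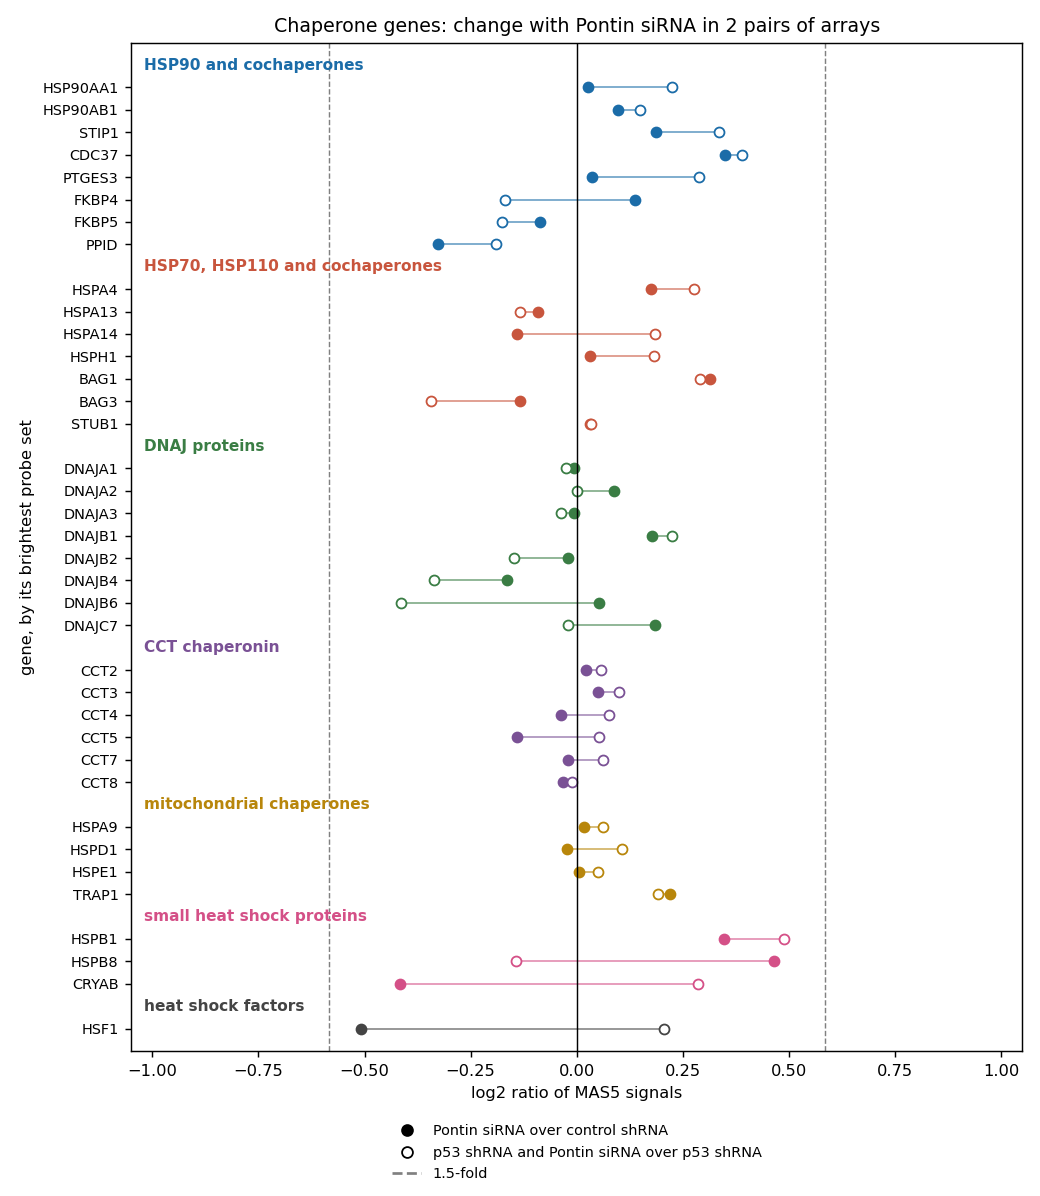
Log2 ratios of signals with Pontin siRNA over those without it, for 37 chaperone genes grouped by role. Filled points are cells with control shRNA, open points cells with p53 shRNA, and the dashed lines mark 1.5-fold. No point lies outside the dashed lines, and the CCT genes, each on its brightest probe set, lie between -0.14 and 0.10.

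With p53 shRNA, again none of the 37 genes was called, by a rule that called 2.25% of the genes kept (1.38% higher and 0.862% lower) and 0.633% of the bright genes (0.22% higher and 0.413% lower). The highest mean ratios were those of HSF1, DNAJB1, CCT5, BAG1, DNAJB2 and HSPE1, and the lowest those of HSPB8, FKBP4, DNAJB4, HSPA4, STIP1 and HSPB1. Small differences were more often downward. Below 0 in both pairs were 20 genes (54.1%, against 32.2% of genes kept and 36.6% of bright genes), and above 0 in both were 5 (13.5%, against 30.6% and 30.1%). These counts moved with the processing too. Without probe set types that can cross-hybridize, 11 of 26 genes were below and 4 above, where 31.5% and 29.5% of genes kept were. After median centring 27 of the 37 genes were below and 1 above, where 45.45% and 11.5% of genes kept were. The median mean ratio was -0.08, against -0.0024 over all genes kept, and the medians of the pairs were -0.07 in cells without and -0.03 in cells with Pontin siRNA. At 1.2-fold in both pairs, 0 genes were higher and 0 lower, where 6.62% of genes kept were higher and 4.9% lower, and 3.28% and 3.15% of bright genes. At 0.32 in log2, 0 genes passed, where 8.35% of genes kept and 3.91% of bright genes did in either direction. By role, the genes below 0 in both p53 pairs were 4 of 8 in the HSP90 group, 4 of 7 in the HSP70 group, 4 of 8 DNAJ genes, 4 of 6 CCT genes, 2 of 4 mitochondrial genes and 2 of 3 small heat shock protein genes.

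**Figure D2:**
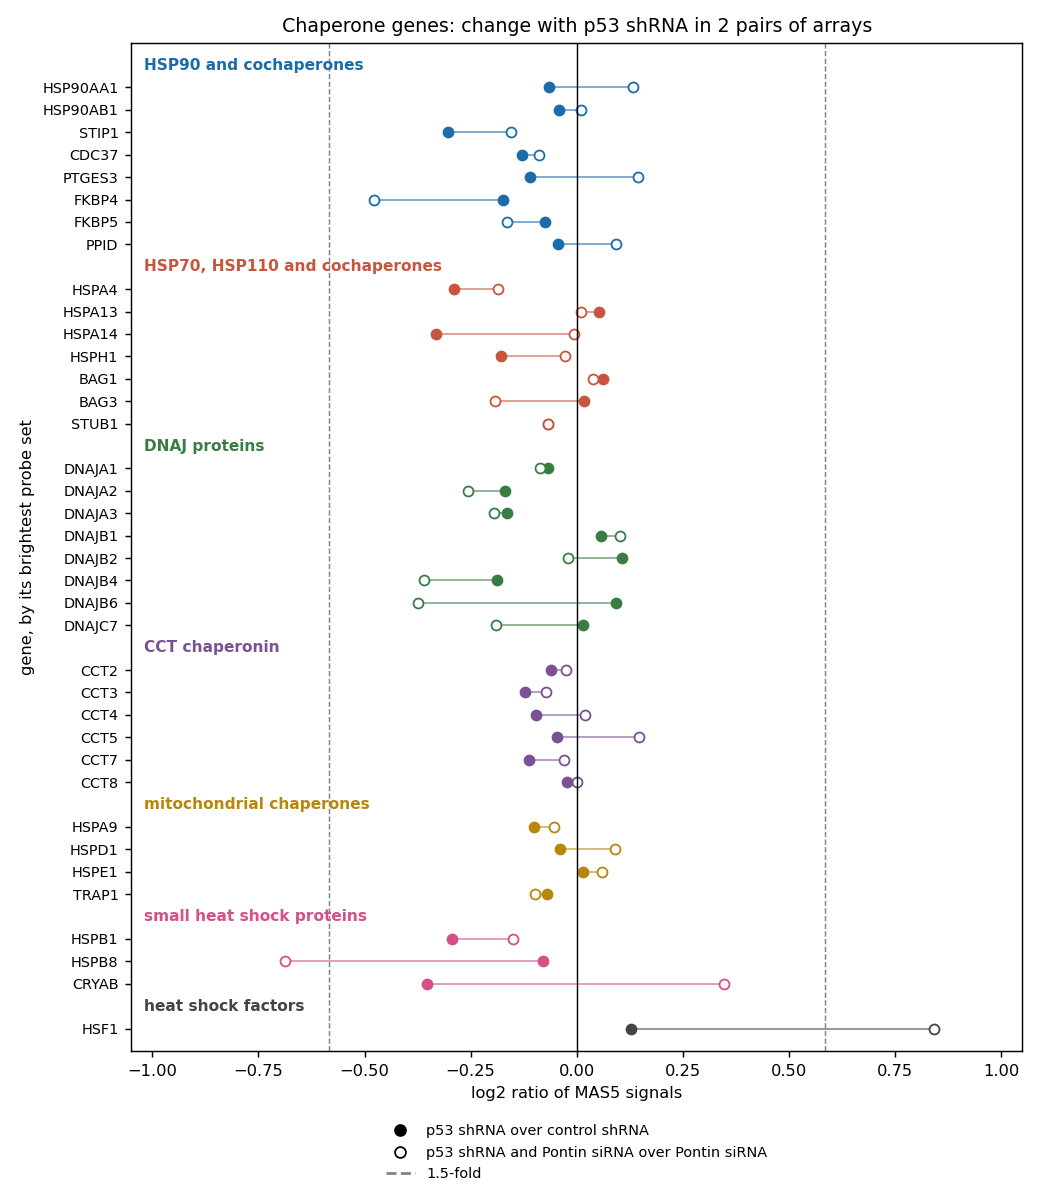
Log2 ratios of signals with p53 shRNA over those without it, for the same 37 genes and in the same order. Filled points are cells without and open points cells with Pontin siRNA, and the dashed lines mark 1.5-fold. Only HSF1 at 0.84 and HSPB8 at -0.69 pass a dashed line, each in 1 pair.

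The size of the mean ratio, without its sign, had a median of 0.11 among the 37 genes with Pontin siRNA, against 0.13 among bright genes and 0.15 among genes kept. With p53 shRNA it was 0.08, against 0.11 and 0.13. Sizes depended on brightness. Of the 37 genes, 10 lay at a signal of 4096 or more, with a median size of 0.04 with Pontin siRNA, against 0.06 over all 326 genes of that brightness. With p53 shRNA the same 10 genes had a median size of 0.04, against 0.09. Other levels of brightness differed. With Pontin siRNA the 7 genes at 2048 to 4096 were at 0.04, against 0.09. The 8 at 1024 to 2048 were at 0.14, against 0.11, and the 5 at 512 to 1024 at 0.21, against 0.13. The 4 at 110.3 to 512 were at 0.22, against 0.15, and the 3 dimmer ones at 0.08, against 0.24. With p53 shRNA, in the same order, the groups were at 0.08, 0.13, 0.08, 0.21 and 0.04, against 0.07, 0.09, 0.10, 0.13 and 0.23.

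**Figure D3:**
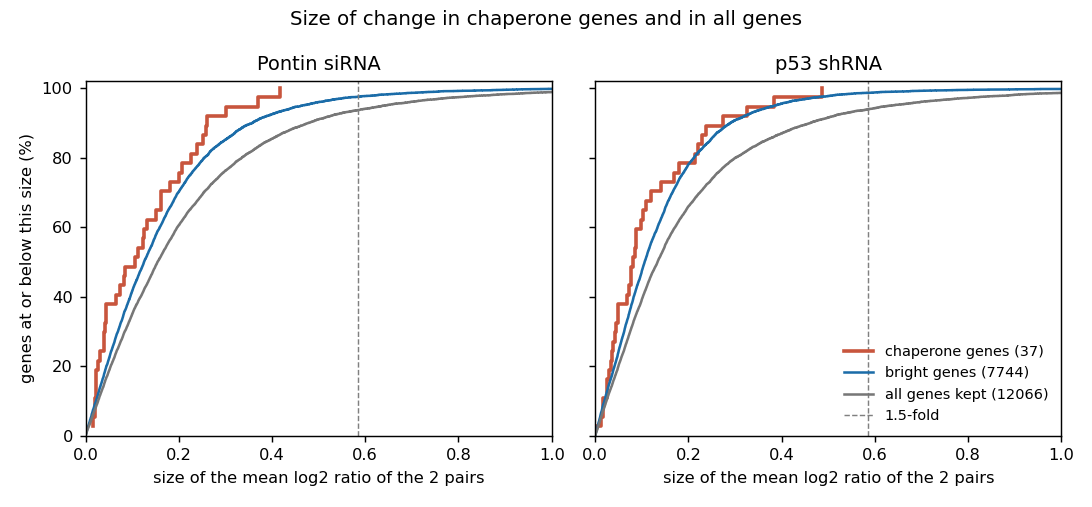
Cumulative share of genes, in percent, by the size of the mean log2 ratio of the 2 pairs, for Pontin siRNA and p53 shRNA. The 37 chaperone genes (red) reach 100% at 0.42 with Pontin siRNA and at 0.49 with p53 shRNA, before the dashed 1.5-fold line, while bright genes (blue) and all genes kept (grey) extend beyond it.

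The HSP90 chaperone genes themselves had small ratios. HSP90AA1, the stress-inducible cytosolic form, had a signal of 9949 with Pontin siRNA against 9767 with control shRNA, and 10902 with both knockdowns against 9334 with p53 shRNA. Its log2 ratios with Pontin siRNA were 0.03 and 0.22, and with p53 shRNA -0.07 and 0.13. The array with both knockdowns was the highest of the 4. HSP90AB1, the constitutive form, was at 0.10 and 0.15 with Pontin siRNA and at -0.04 and 0.01 with p53 shRNA. Over the 7 probe sets of the 2 genes, ratios ran from -0.11 to 0.25 with Pontin siRNA and from -0.23 to 0.13 with p53 shRNA. PTGES3, which encodes the cochaperone p23, was at 0.04 and 0.29 with Pontin siRNA and at -0.11 and 0.14 with p53 shRNA. The brightest genes lay above 0 in general in the second Pontin pair: over the 326 genes at a signal of 4096 or more its median was 0.08, against -0.0070 in the first pair. After quantile normalization the second Pontin pair of HSP90AA1 was at 0.06 and that of PTGES3 at 0.17. After cyclic loess normalization these were 0.20 and 0.28, so the 2 methods differed.

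The HSP90 cochaperones CDC37 and STIP1 were higher with Pontin siRNA in both pairs, below the size of a call. CDC37, which brings protein kinases to HSP90, had a signal of 503.3 with Pontin siRNA against 394.8 with control shRNA, and 473.4 with both knockdowns against 361.2 with p53 shRNA. These are log2 ratios of 0.35 and 0.39. Both arrays with Pontin siRNA were above both arrays without it. How many of all genes had this ordering was not counted, so no weight is put on it for any gene here. Above 0 in both Pontin pairs, a looser condition, were 33.9% of genes kept. The reverse ordering, both arrays with Pontin siRNA below both without it, also occurred. PPID, BAG3, FKBP5 and HSPA13, among others, had it on their brightest probe sets. With p53 shRNA CDC37 was at -0.13 and -0.09.

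STIP1, the adaptor between HSP70 and HSP90, had a signal of 1274 with Pontin siRNA against 1120 with control shRNA, and 1144 with both knockdowns against 906.9 with p53 shRNA. Its ratios were 0.19 and 0.33 with Pontin siRNA and -0.30 and -0.16 with p53 shRNA. Its other probe set gave the same directions, with 0.53 and 0.39 for Pontin siRNA and -0.35 and -0.49 for p53 shRNA. The lowest of the 4 STIP1 signals was on the p53 shRNA array and the highest on the Pontin siRNA array on both probe sets, and the arrays with and without Pontin siRNA did not overlap on either.

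PPID and the FKBP genes encode peptidyl-prolyl isomerases that bind HSP90 through tetratricopeptide repeats. PPID had a signal of 1002 with Pontin siRNA against 1257 with control shRNA, and 1069 with both knockdowns against 1219 with p53 shRNA, for log2 ratios of -0.33 and -0.19. It was the lowest of the 37 genes by mean ratio with Pontin siRNA. Its next probe set was at -0.06 and -0.20, but its dimmest one, with signals of 44 to 90.3, was at 0.73 and 0.51. FKBP4 had a signal of 1038 with p53 shRNA against 1170 with control shRNA, and 922.8 with both knockdowns against 1286 with Pontin siRNA, or -0.17 and -0.48. Its next probe set was at -0.36 and -0.17, so these lay below 0 in both pairs with p53 shRNA, while with Pontin siRNA they gave 0.14 and -0.17 against 0.20 and 0.39. Its 2 dimmest probe sets, with signals of 15.8 to 43.1, were at 0.52 and -0.02 and at -0.74 and -0.09 with p53 shRNA.

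FKBP5, a gene known to be induced by glucocorticoid and androgen receptors, differed between its probe sets. On the brightest one its signal was 540.0 with p53 shRNA against 568.6 with control shRNA, and 478.0 with both knockdowns against 535.3 with Pontin siRNA, for log2 ratios of -0.07 and -0.16. On the next, its signal was 90.1 with p53 shRNA against 136.4 with control shRNA, and 94.1 with both knockdowns against 146.5 with Pontin siRNA, for ratios of -0.60 and -0.64. That probe set alone of the 78 kept for the 37 genes passed the 1.5-fold rule for either knockdown, where the rule passed 2.71% of all single-symbol probe sets kept for Pontin siRNA and 2.16% for p53 shRNA. With Pontin siRNA the 2 probe sets were at -0.09 and -0.18, and at 0.10 and 0.06.

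HSP70 genes and their cochaperones gave a mixed picture. HSPA4, a member of the HSP110 family of nucleotide exchange factors, had a signal of 980.3 with Pontin siRNA against 868.9 with control shRNA, and 861.7 with both knockdowns against 711.4 with p53 shRNA. Its ratios were 0.17 and 0.28 with Pontin siRNA and -0.29 and -0.19 with p53 shRNA, and the p53 ratios of its other 3 probe sets lay between -0.38 and -0.06. BAG1, an HSP70 nucleotide exchange factor, had a signal of 993.9 with Pontin siRNA against 799.7 with control shRNA, and 1021 with both knockdowns against 834.3 with p53 shRNA. These are ratios of 0.31 and 0.29, and both BAG1 signals with Pontin siRNA were above both signals without it. With p53 shRNA BAG1 was at 0.06 and 0.04. On its next probe set the Pontin ratios were 0.49 and 0.11, and on its dimmest one 0.14 and -0.03.

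BAG3, which links HSP70 to selective autophagy, was lower with Pontin siRNA in both pairs. Its signal was 1261 with Pontin siRNA against 1384 with control shRNA, and 1103 with both knockdowns against 1400 with p53 shRNA, for ratios of -0.13 and -0.34 on its single probe set. STUB1, an HSP70-binding ubiquitin ligase and the brightest gene of this group, had a signal of 2676 with Pontin siRNA against 2617 with control shRNA, and 2553 with both knockdowns against 2496 with p53 shRNA. It was at 0.03 in both Pontin pairs and at -0.07 in both p53 pairs. HSPH1, another HSP110 gene, HSPA13, a microsome-associated HSP70 relative, and HSPA14, a ribosome-associated one, had Pontin ratios of -0.14 to 0.18 on their brightest probe sets. HSPA13 was there at -0.09 and -0.13, but at 0.21 and 0.27 on its next probe set, so its direction differed between them. The next HSPH1 probe set was at 0.34 and -0.02. With p53 shRNA, on the brightest probe sets, HSPA14 was at -0.33 and -0.0070, and HSPH1 at -0.18 and -0.03.

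The DNAJ genes had the lowest median of the larger groups with p53 shRNA, -0.11 over 8 genes. DNAJB4, an HSP40 protein also called HLJ1, had a signal of 159.1 with p53 shRNA against 181.2 with control shRNA, and 125.9 with both knockdowns against 161.6 with Pontin siRNA, for ratios of -0.19 and -0.36. With Pontin siRNA it was at -0.17 and -0.34, so its signal was lowest with both knockdowns, at a ratio of -0.53 over control shRNA. A dimmer DNAJB4 probe set, with signals of 35.6 to 67.1, gave 0.73 and -0.91 with Pontin siRNA and 0.76 and -0.88 with p53 shRNA. DNAJA2, a cytosolic HSP70 partner, was at -0.17 and -0.26 with p53 shRNA. DNAJA3, the mitochondrial member, was at -0.16 and -0.20, and at -0.28 and -0.30 on its other probe set.

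DNAJB1, the main HSP40 partner of HSP70 under heat stress, was the exception among DNAJ genes with both ratios above 0 for each knockdown. Its signal was 1647 with Pontin siRNA against 1456 with control shRNA, and 1768 with both knockdowns against 1515 with p53 shRNA. These are ratios of 0.18 and 0.22 with Pontin siRNA, with 0.06 and 0.10 for p53 shRNA. Its other probe set gave 0.34 and 0.37, and 0.04 and 0.07. DNAJA1, the brightest DNAJ gene, had a signal of 3014 with Pontin siRNA against 3028 with control shRNA, and 2839 with both knockdowns against 2888 with p53 shRNA, so all 4 arrays lay close together. DNAJB2, a neuronally enriched member, had a signal of 110.4 with p53 shRNA against 102.6 with control shRNA, and 99.6 with both knockdowns against 101.1 with Pontin siRNA, ratios of 0.11 and -0.02. DNAJC7, which binds both HSP70 and HSP90, was at 0.18 and -0.02 with Pontin siRNA.

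DNAJB6, a suppressor of protein aggregation, was low on 1 array. Its signal was 408.3 with Pontin siRNA against 393.6 with control shRNA, and 314.8 with both knockdowns against 419.4 with p53 shRNA. The Pontin ratios were 0.05 and -0.41, and the p53 ratios 0.09 and -0.38. Signals without the combined knockdown lay between 393.6 and 419.4.

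The 6 CCT subunit genes were close to even across the arrays on their brightest probe sets. Their ratios lay between -0.14 and 0.10 in both Pontin pairs and between -0.12 and 0.15 in both p53 pairs. CCT8, the brightest of them, had a signal of 4876 with Pontin siRNA against 4990 with control shRNA, and 4875 with both knockdowns against 4913 with p53 shRNA. The largest single ratio was that of CCT5, with a signal of 4795 with both knockdowns against 4332 with Pontin siRNA, and 4622 with p53 shRNA against 4777 with control shRNA. CCT2, CCT3 and CCT7 were below 0 in both p53 pairs, at -0.12 or nearer to 0, and CCT8 was at -0.02 and -0.00027. Other probe sets differed more: the next CCT2 probe set was at 0.21 and 0.16 with Pontin siRNA and at -0.20 and -0.25 with p53 shRNA, and that of CCT5 at -0.07 and -0.33 and at 0.02 and -0.24. CCT6A, a ring subunit gene outside the list, was at 0.0046 and -0.03 with Pontin siRNA and at -0.04 and -0.07 with p53 shRNA.

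The mitochondrial chaperone genes had small ratios on their brightest probe sets, and some of their other probe sets differed. HSPD1 and HSPE1, which encode HSP60 and HSP10 and lie head to head on a shared promoter region, were at -0.02 and 0.11 and at 0.0050 and 0.05 with Pontin siRNA. The HSPD1 signal was 9400 with Pontin siRNA against 9545 with control shRNA, and 9999 with both knockdowns against 9287 with p53 shRNA. On the next brightest HSPD1 probe set the signal was 4279 with Pontin siRNA against 3461 with control shRNA, and 3592 with both knockdowns against 3136 with p53 shRNA, for ratios of 0.31 and 0.20 with Pontin siRNA and -0.14 and -0.25 with p53 shRNA. On that probe set, unlike the brightest, both signals with Pontin siRNA were above both without it. HSPE1 had a signal of 4141 with p53 shRNA against 4100.0 with control shRNA, and 4286 with both knockdowns against 4114 with Pontin siRNA, and these 4 signals of its single probe set lay close together. HSPA9, the mitochondrial HSP70 gene, was at 0.02 and 0.06 with Pontin siRNA and at -0.10 and -0.05 with p53 shRNA. Its next probe set was at 0.15 and 0.15 with Pontin siRNA, and a dimmer one at -0.21 and -0.25, so the direction differed between probe sets. TRAP1, the mitochondrial HSP90 gene, had a signal of 956.8 with Pontin siRNA against 821.1 with control shRNA, and 893.4 with both knockdowns against 782.2 with p53 shRNA, for ratios of 0.22 and 0.19. Both TRAP1 signals with Pontin siRNA were above both signals without it. With p53 shRNA TRAP1 was at -0.07 and -0.10.

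The small heat shock protein genes held the highest Pontin ratio of the 37 genes. HSPB1, which encodes HSP27, an ATP-independent holder of unfolding proteins, had a signal of 4469 with Pontin siRNA against 3516 with control shRNA, and 4029 with both knockdowns against 2870 with p53 shRNA. This is 1.27-fold and 1.4-fold, or 0.35 and 0.49 in log2, and neither reached 1.5-fold. Both signals with Pontin siRNA were above both without it, an ordering that was not counted over all genes. With p53 shRNA HSPB1 was at -0.29 and -0.15, on its single probe set. After quantile normalization the Pontin ratios were 0.38 and 0.49.

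HSPB8 and CRYAB were dim, and both gave opposite directions in the Pontin pairs, as CRYAB did in the p53 pairs. HSPB8, a partner of BAG3, had a signal of 73.4 with p53 shRNA against 77.6 with control shRNA, and 66.5 with both knockdowns against 107.1 with Pontin siRNA. Its p53 ratios were -0.08 and -0.69, and its Pontin ratios 0.46 and -0.14, so the second p53 ratio rested on the single high value with Pontin siRNA. A dimmer HSPB8 probe set, with signals of 18.0 to 46.7, had -0.86 and 1.19 with p53 shRNA. CRYAB, which encodes alpha B-crystallin, had a signal of 22.4 with Pontin siRNA against 29.9 with control shRNA, and 28.5 with both knockdowns against 23.4 with p53 shRNA. It was at -0.42 and 0.28 with Pontin siRNA and at -0.35 and 0.35 with p53 shRNA.

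HSF1 had the highest mean ratio with p53 shRNA, 0.49. Its signal was 155.8 with p53 shRNA against 142.5 with control shRNA, and 179.7 with both knockdowns against 100.2 with Pontin siRNA, for ratios of 0.13 and 0.84. With Pontin siRNA the ratios were -0.51 and 0.21, so the Pontin siRNA array held the lowest signal and the array with both knockdowns the highest. A dimmer HSF1 probe set, with signals of 16.5 to 28.7, was at 0.46 and 0.22 with p53 shRNA and at -0.34 and -0.58 with Pontin siRNA. Both probe sets were thus above 0 in both p53 pairs, but they ranked the array with both knockdowns differently. At least 1.5-fold apart in any of the 4 pairs were HSF1 and HSPB8 alone, both in the p53 pair of cells with Pontin siRNA, where 9.77% of genes kept and 2.47% of bright genes were that far apart. HSPB8 was not among the bright genes. None of the 37 genes was that far apart in the other p53 pair (8.8% of genes kept, 1.85% of bright genes), in the Pontin pair of control shRNA cells (8.14% and 2.1%) or in that of p53 shRNA cells (11.8% and 4.97%).

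**Figure D4:**
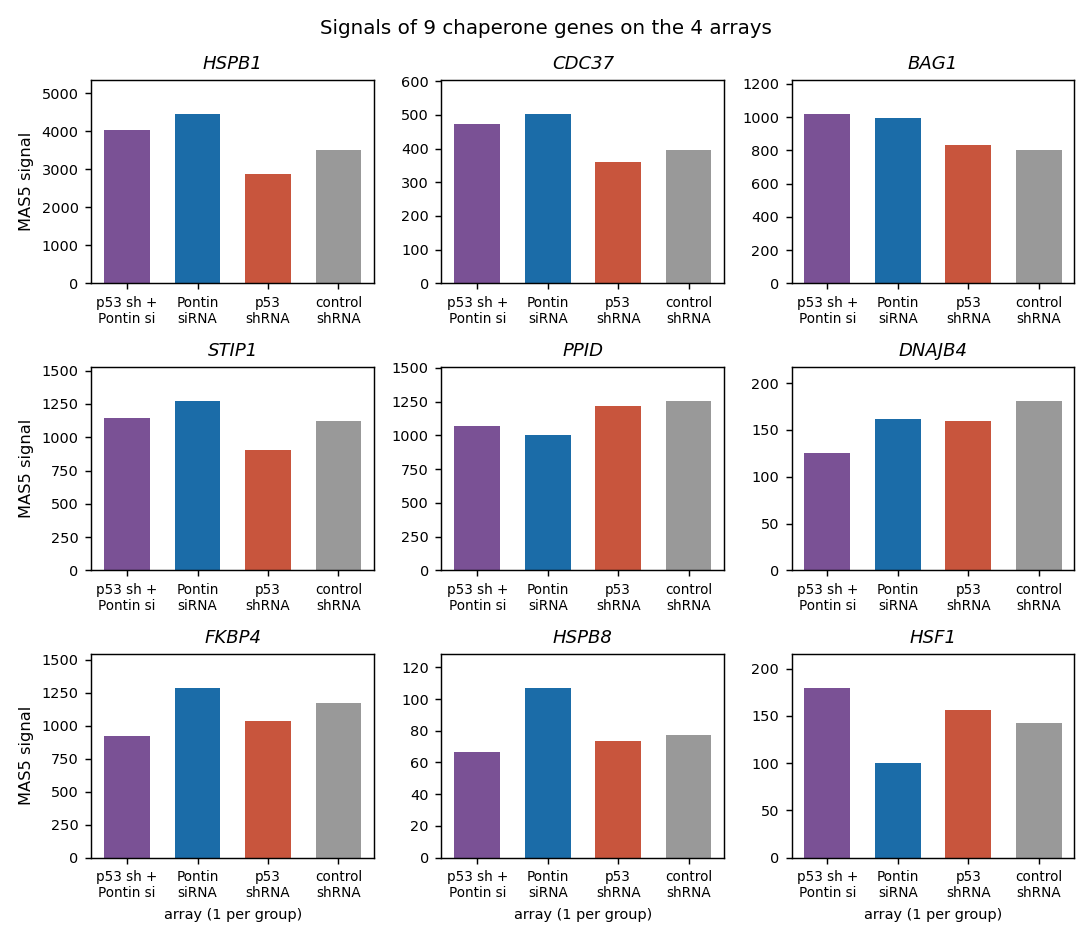
MAS5 signals, on a linear axis from 0, of 9 chaperone genes on the 4 arrays, 1 bar per array and no replicates. HSPB1, CDC37, BAG1 and STIP1 were higher on both arrays with Pontin siRNA than on both without, and PPID was lower. HSPB8 and HSF1 each stood out on single arrays. How many of all genes were ordered in either of these ways was not counted.

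For the direct comparison of both knockdowns with control shRNA, 0 of the 37 genes were 1.5-fold apart, where 13.2% of genes kept and 5.82% of bright genes were. The ratios ran from -0.53 for DNAJB4 to 0.35 for BAG1, with a median of -0.02. HSPB1, above control with Pontin siRNA alone and below it with p53 shRNA alone, was at 0.20, STIP1 at 0.03 and HSPA4 at -0.01. These comparisons share their arrays with the pairs above.

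The departure from additivity compares a knockdown's log2 ratio between its pairs, as the ratio in cells with the other knockdown minus the ratio in cells without it. Its median over the 37 genes was 0.04, against -0.02 over genes kept. At least 1.5-fold were 3 of the 37 genes, HSF1 at 0.71, CRYAB at 0.70 and HSPB8 at -0.61, where 13.1% of genes kept and 2.6% of bright genes departed that far. Of these 3, only HSF1 was among the bright genes. DNAJB6 came next at -0.47. The departure also moved with brightness: its median was 0.08 over the 326 genes at a signal of 4096 or more and 0.08 over the 10 chaperone genes there. All 6 CCT genes departed upward, by 0.02 to 0.19.

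Genes with the heat shock element printed above did not share a direction. With Pontin siRNA, HSP90AA1 and HSP90AB1 were above 0 in both pairs, DNAJA1 was at -0.0065 and -0.02, HSPD1 at -0.02 and 0.11, and DNAJB6 at 0.05 and -0.41. CHORDC1, which encodes an HSP90-binding cochaperone and holds 3 overlapping matches, had a signal of 1678 with Pontin siRNA against 2337 with control shRNA, and 1246 with both knockdowns against 2125 with p53 shRNA. Its ratios of -0.48 and -0.77 missed the call in the first pair, and it was at -0.14 and -0.43 with p53 shRNA. The other CHORDC1 probe set, too dim to be kept by itself at 2.4 to 17.2, was at -2.07 and 0.84 with Pontin siRNA. SERPINH1, which also held the motif, was at 0.30 and -0.17 with Pontin siRNA. HSPA6, an HSP70 gene known to be silent without heat stress, stayed between 16.7 and 29.2, near the lower limit of the genes kept.

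Of 69 other chaperone network genes listed, such as further DNAJ, prefoldin, BAG, NUDC and R2TP genes, 64 had a probe set and 60 were kept. Leaving out RUVBL1, 0 of 59 were called higher and 1 lower with Pontin siRNA, where 1.16% and 1.24% of genes kept were. With p53 shRNA 0 were called in either direction, where 2.25% of genes kept were. The called gene was CDC37L1, a CDC37 relative that binds HSP90. It had a signal of 148.0 with Pontin siRNA against 245.6 with control shRNA, and 151.2 with both knockdowns against 233.5 with p53 shRNA, for ratios of -0.73 and -0.63. Its 2 dimmer probe sets were at -0.32 and -0.45 and at -0.08 and -0.39, so the size of a call rests on 1 probe set. CDC37L1 thus lay on the other side of 0 from CDC37. The R2TP subunit genes RPAP3 and PIH1D1 were at -0.01 and -0.28 and at 0.16 and -0.05 with Pontin siRNA. Median ratios of the 59 genes were 0.02 with Pontin siRNA and -0.02 with p53 shRNA.

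Probe sets of the same gene gave a further look at these small ratios, but on the same 4 arrays, so they do not repeat a knockdown. Of 25 genes with at least 2 probe sets kept, the brightest and the next had the same sign of mean ratio in 20 with Pontin siRNA and in 18 with p53 shRNA. The median difference between them was 0.14 and 0.12, beside median sizes of the ratio of 0.11 and 0.08 among the 37 genes. On the next brightest probe sets the median ratio was 0.15 with Pontin siRNA and -0.10 with p53 shRNA. Neither these medians nor the counts of the same sign were computed over all genes. STIP1 and HSPA4 were above 0 with Pontin siRNA and below 0 with p53 shRNA on both probe sets. HSF1 was below 0 with Pontin siRNA and above 0 with p53 shRNA on both probe sets.

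**Figure D5:**
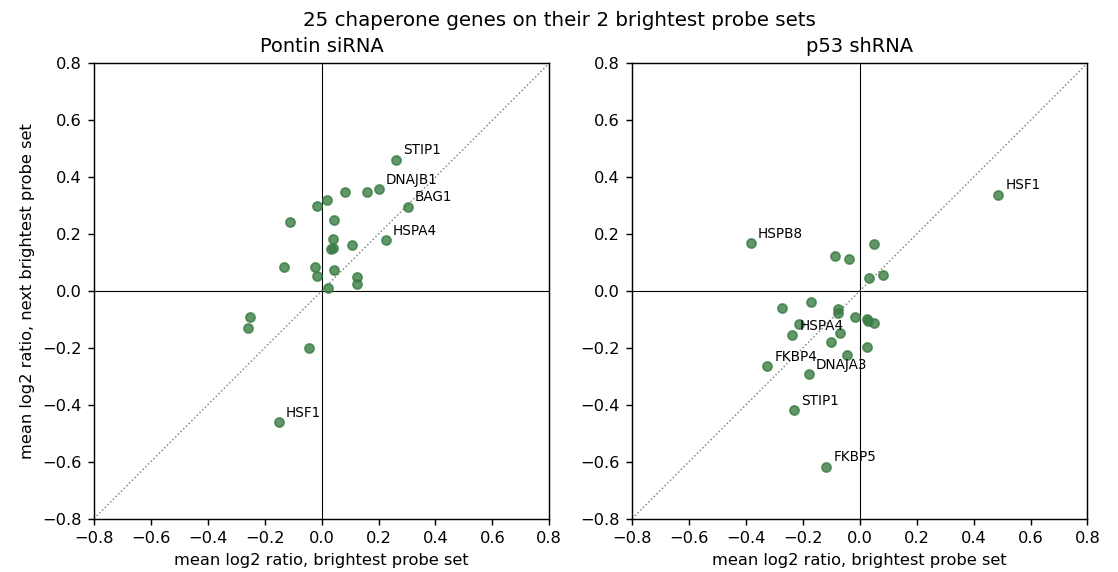
Mean log2 ratio of the 2 pairs on the brightest probe set (x axis) and the next brightest (y axis) for 25 chaperone genes, with Pontin siRNA and with p53 shRNA. The dotted line marks equal values. STIP1 and HSF1 fall in the same quadrant on both probe sets, while FKBP5 was at -0.12 on the brightest and -0.62 on the next with p53 shRNA.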

How the data were processed

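RNA abundance was measured in 4 cultures of SK-BR-3 cells on 1 Affymetrix array each, from 200 ng of total RNA. The deposited values are linear intensities from MAS5, a tool named without a version in the submitters' processing notes. After trimming 2% at either end, every array averaged 150.0, so the authors had scaled the arrays. No detection calls were used, and the number of arrays limits the precision.

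Signals were taken to log2 without further normalization or pseudocount, and 14 signals of 0, none in a gene kept, were set to 0.1. Names came from the platform annotation, and symbols were updated by Entrez identifier (41043 of 41097 single-symbol probe sets matched). Of 19777 genes, 12066 at or above the median probe set signal were kept. Of the brightest probe sets of the 37 genes, 20 were of types that can cross-hybridize (suffix _s, _x or _a).

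Groups came from the sample titles. Alternatives were median centring, quantile and cyclic loess normalization (limma 3.58.1), a pseudocount of 16, other filters, probe set rules and folds, each pair alone, and a limma additive fit. On simulated arrays with known changes the calling rule found the changed genes and the limma fit called none of them. Those changes were placed in brighter genes only and were larger than any mean ratio of the 37 genes. The simulation therefore does not bear on changes of the size seen here. Genes described with values on all arrays were those past 1.5-fold in any pair, the 6 highest and lowest for each knockdown, the 4 largest departures and the brightest of each group. Other genes given on all arrays were picked with their values in view. The genes and lists were chosen with earlier results of these data known. The p53 transcript itself is not given, and the p53 knockdown was left unchecked.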

Additional observations from a re-analysis of the deposited data

Results flagged for a closer look

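Of the 37 chaperone genes, 12 (32.4%) had opposite directions in the 2 pairs of Pontin siRNA, against 33.9% of genes kept, and 12 in the 2 pairs of p53 shRNA, against 36.7%, so neither share was above that of all genes. The difference between pairs was not tested for any of them, since each pair is 1 array against 1. CRYAB alone was at least 1.2-fold apart in opposite directions, with log2 ratios of 0.28 with and -0.42 without p53 shRNA for Pontin siRNA, and 0.35 with and -0.35 without Pontin siRNA for p53 shRNA. Its signals of 22.4 to 29.9 were the lowest of the 37 genes.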

How the results depend on the processing

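No paired analysis was possible because the labels give no replicate numbers to block on; the pairing of each knockdown within the other is part of the main comparison and of the limma additive fit. No chaperone gene was called for Pontin siRNA under 10 of the alternatives, and leaving out an array gave 0 to 0. Among the 10, the 2-fold threshold, bright genes only and no signal filter could not have added a call for these genes. The limma fit, also among the 10, adds nothing here, as described below. At a threshold of 0.32 in log2, 2 (HSPB1 and CDC37) were called, where 9.77% of genes kept were. For p53 shRNA, 1 gene was called with the mean over probe sets (TRAP1, through a probe set too dim to be kept by itself), and single pairs left by leaving out an array gave 0 to 2 (HSF1 and HSPB8). In the limma additive fit, which has 1 residual degree of freedom, 0 of 12066 genes had an adjusted p under 0.05 for either knockdown, and 3 of the 37 genes had an unadjusted p under 0.05 for Pontin siRNA (8.11%, against 14.4% of genes kept) and 0 for p53 shRNA (against 11.5%); with 0 calls over all genes, the fit says nothing on stability. Median centring moved the median of all genes kept to -0.16 with Pontin siRNA and -0.13 with p53 shRNA. The medians of the 37 genes were then -0.14 and -0.21, which is 0.02 above and 0.07 below all genes. Centring shifts the ratio of every gene by the same amount, so these gaps could not differ from those in the signals as deposited. With the mean over probe sets the Pontin median was 0.094, against 0.04 over all genes, and single pairs gave 0.021 to 0.061. The p53 median was -0.049 without cross-hybridizing probe set types, over 26 genes, and single pairs gave -0.070 to -0.031. It was below 0 under all alternatives run on it. The median departure was -0.19 after median centring, -0.0044 with the mean over probe sets and -0.023 without cross-hybridizing types, so its sign depended on the setting. With both knockdowns over control shRNA, 4 genes passed 1.5-fold after median centring (BAG3, FKBP4, DNAJB6 and DNAJB4, all lower, where all genes moved by -0.30), 1 with the mean over probe sets (TRAP1) and 1 without cross-hybridizing types (PPID). The causes were not tested. Of the single-gene mean ratios compared with the main ones, 224 of 282 for Pontin siRNA and 229 of 282 for p53 shRNA moved by less than the spread between the pairs. Some of these could not move. No signal filter and bright genes only left every ratio as it was, as did the probe set rules for genes that kept the same probe set. The shares are therefore no measure of stability.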

Other observations

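Some chaperone genes outside the list, chosen after their values were seen, were too dim to be kept but far apart on single arrays. HSPB6, a small heat shock protein gene, had signals of 12 with p53 shRNA against 4.7 with control shRNA, and 15.2 with both knockdowns against 7.7 with Pontin siRNA. HSPA12B, a distant HSP70 relative, had signals of 6.9 with Pontin siRNA against 16 with control shRNA, and 11.7 with both knockdowns against 17.9 with p53 shRNA. HSF4, a heat shock factor gene of the lens, lay between 2.5 and 7.4, and FKBP8 between 6.5 and 15.5. No detection calls say whether these transcripts were present.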
